A study of Mus musculus with 6 samples.

Results

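The collagen genes were examined as a family in dorsal root ganglia (DRG), the clusters of sensory neuron cell bodies beside the spinal cord, after ankle ligament injury in mice. Members were the genes whose symbol had the form of a collagen chain, such as Col1a1 or Col27a1, and that had a value in all 6 libraries. There were 44 of them among 19306 genes with values. The LAS (lateral ankle sprain) group had 3 libraries from wild-type mice whose right anterior talofibular and calcaneofibular ligaments were cut through an ankle incision. The sham group had 3 libraries from wild-type mice given the incision at the same site, with the ligaments left intact. Both groups therefore carried a skin wound, and the contrast is ligament transection on top of it. The study used C57BL/6 mice of both sexes aged 6 to 8 weeks, and ipsilateral L3 to L5 ganglia were taken on day 14. How many animals a library holds, and whether libraries of a group come from separate animals, is not given in the sources used here, so the p-values rest on a spread between libraries that may be technical.

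Collagens are the main structural proteins of the extracellular matrix. Their chains wind around each other in a rope-like helix, which needs glycine, the smallest amino acid, at a fixed spacing along the chain. In a ganglion, fibrillar collagens form the capsule and the connective tissue between cells, type IV collagen lines the basement membranes of glia and vessels, and further types bind to fibrils or span cell membranes. Fibroblasts, Schwann cells, vascular cells and meningeal cells are known sources.

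The coding sequences of all 44 members were read from the GENCODE annotation (GRCm38) to show the feature that the symbols do not carry, the spacing of glycine codons. A triplet here is a group of 3 codons that opens with a glycine codon, and a run is a row of such triplets without a break. The first sequences give the 15 codons at the start of the longest run in each gene, and the last pair the 15 codons across the end of that run, with every glycine codon in capitals.
Col1a1: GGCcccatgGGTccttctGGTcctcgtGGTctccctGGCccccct
Col1a2: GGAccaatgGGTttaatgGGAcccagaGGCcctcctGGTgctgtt
Col27a1: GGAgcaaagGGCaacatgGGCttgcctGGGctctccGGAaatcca
Col4a1 across the end of its longest run: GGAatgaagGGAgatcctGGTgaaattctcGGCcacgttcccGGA
Col28a1 across the end of its longest run: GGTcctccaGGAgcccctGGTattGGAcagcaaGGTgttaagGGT
These were chosen because the first pair encodes the chains of type I collagen, the most abundant fibrillar type, Col27a1 had the smallest p of the family, and the others show how a run breaks off. On GRCm38 the codons lie in exons of the coding part of each gene, at chr11:94939451-94939732 for Col1a1, chr6:4512406-4515245 for Col1a2 and chr4:63244040-63245104 for Col27a1, all on the plus strand, and at chr8:11244534-11245066 for Col4a1 and chr6:8127350-8128780 for Col28a1 on the minus strand. Each of these spans holds at least 1 intron that the sequence leaves out.

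The fibrillar chains stood apart in these sequences. In 9 of the 11 fibrillar genes the longest run held 337 to 344 triplets, while Col24a1 had 216 and Col27a1 217 triplets. Outside this class no member had a run of more than 113 triplets. The 6 type IV genes had a longest run of 39 to 66 triplets, but between 22 and 27 runs of 5 or more triplets each, which together took up at least 75.4% of their codons. Col26a1 had the shortest longest run of the family, with 23 triplets. All 44 coding sequences opened with ATG, and they were 1320 to 9852 bases long.

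**Figure D1:**
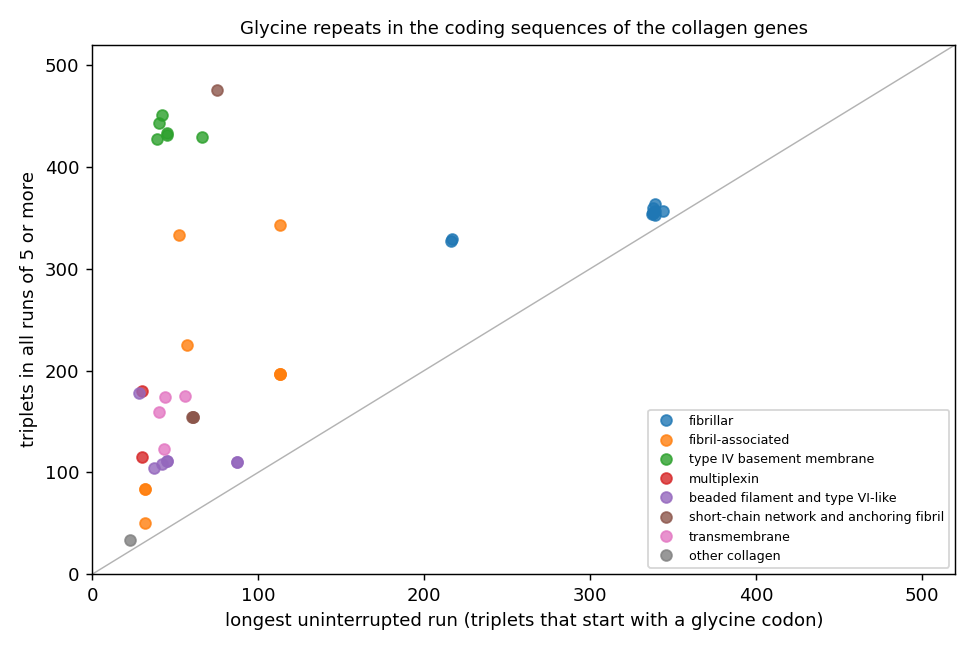
Longest uninterrupted run of glycine-led codon triplets (x axis, triplets) against the triplets in all runs of 5 or more (y axis, triplets), 1 point per collagen gene, coloured by class, with a grey line where both are equal. The fibrillar genes stand alone at the right, 9 of them near the line at 337 to 344 triplets, and type IV genes lie far above the line with longest runs of 39 to 66.

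Levels were measured as FPKM, fragments scaled to the length of the gene and to the number mapped in the library, so that levels can be compared between genes. The family spanned a wide range of levels in DRG. Its mean level was at least 10 FPKM for 11 members, between 1 and 10 FPKM for 17 members and under 1 FPKM for 16 members. The most abundant members were fibrillar, with 53.0 FPKM for Col1a2 and 37.7 FPKM for Col5a3 on average over the 6 libraries. The 10 most abundant members made up 72.8% of the summed collagen FPKM. Fibrillar genes took 51.4% of that sum, beaded filament and type VI-like genes 13.9% and type IV genes 13.3%.

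A filter of at least 0.5 FPKM in at least 3 libraries kept 34 members for testing and left out 10. The members left out were Col4a3, Col4a4, Col4a6, Col6a4, Col6a5, Col6a6, Col9a1, Col10a1, Col17a1 and Col22a1. Most of these are known from other tissues, such as Col10a1 from growth plate cartilage and Col17a1, a hemidesmosome component, from skin. Col9a1 was listed at 0 in LAS replicate 3 and sham replicate 1 and reached 0.09 FPKM at most, and Col6a6 was listed at 0 in LAS replicate 3 and reached 0.09 FPKM at most. The values were rounded to 0.01 FPKM, so steps between such low values are coarse.

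**Figure D2:**
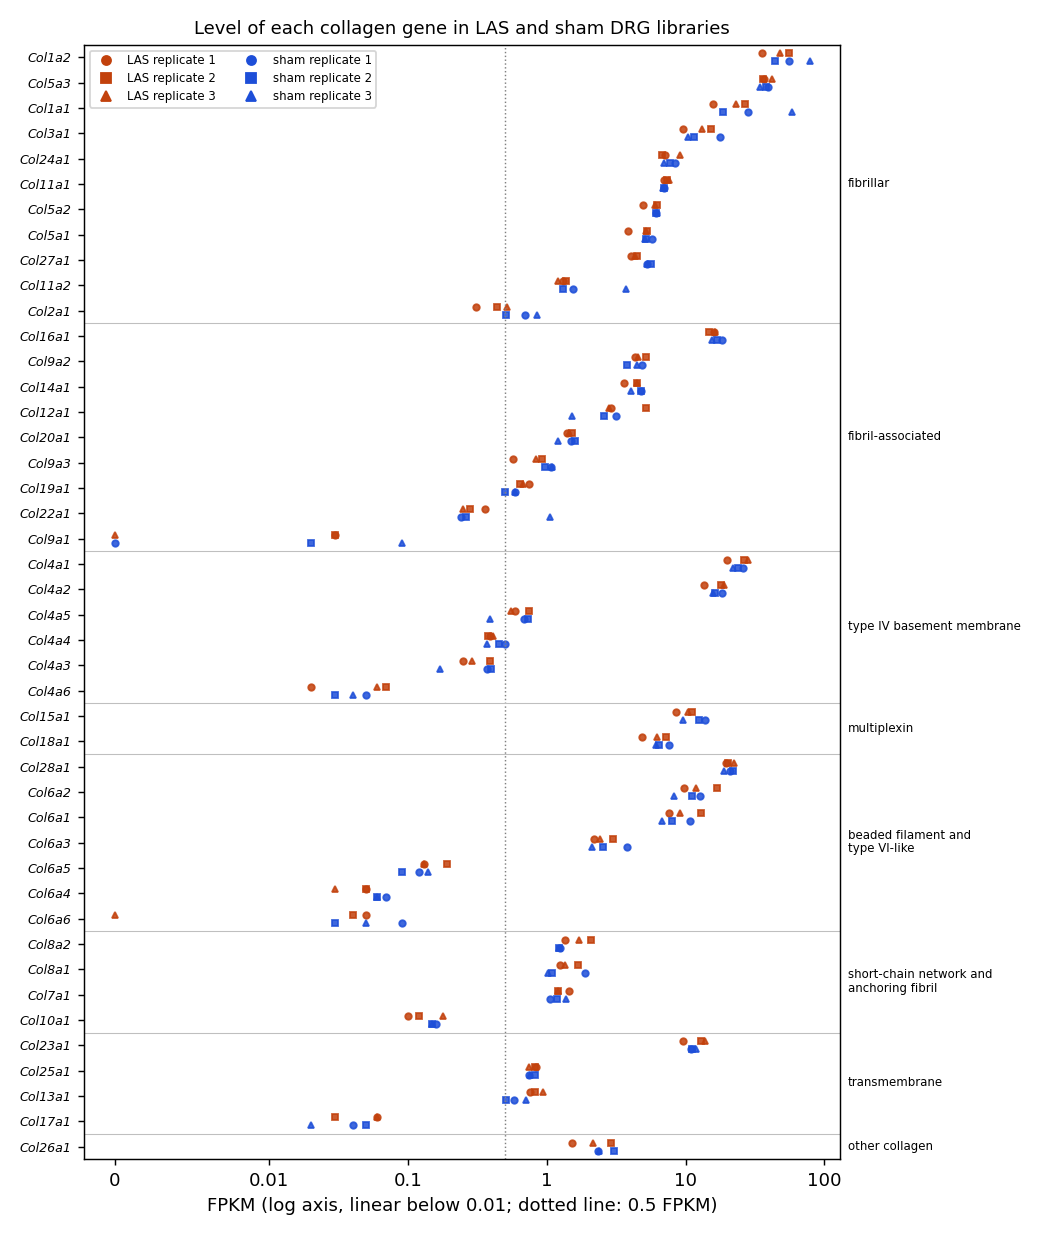
FPKM of each of the 44 collagen genes (x axis, logarithmic above 0.01 FPKM and linear below it) by library, grouped by class, with LAS libraries in orange above sham libraries in blue. The dotted line marks 0.5 FPKM, and Col1a2 and Col5a3 lie furthest to the right while Col9a1 and Col6a6 reach 0 in some libraries.

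The libraries also differed within each group. Sham replicate 3 lay at 47.6 on the first principal component (57.2% of the variance) and the next library, LAS replicate 1, at 7.97. The summed FPKM of 10 skeletal muscle markers was 103 to 315 in LAS libraries, and 105, 271 and 2057 in sham replicates 1, 2 and 3, and all 9 tested genes of the list were highest in sham replicate 3. Pvalb made up most of the sum in the lowest libraries, at 72.5 FPKM in LAS replicate 3 and 75.7 FPKM in sham replicate 1. It was at 243 FPKM in sham replicate 3. Acta1 was at 7.86, 8.94 and 523 FPKM in these libraries. The summed FPKM of 8 neutrophil and marrow myeloid markers was 105 to 396 in LAS libraries, and 63.1, 93.3 and 1985 in the sham libraries. LAS replicate 2 had a summed level of 10 leptomeningeal markers, genes of the inner membranes around the spinal cord and roots, of 1127 FPKM, against 204 and 273 in the other LAS libraries and 190 to 256 in sham libraries. LAS replicate 1 had the lowest summed Schwann cell marker level, 4223 FPKM, against 6342 and 6409 in the other LAS libraries and 5038 to 5653 in sham libraries. Satellite glia markers, led by Apoe, summed to 2533, 2684 and 2640 FPKM in LAS libraries and 2810, 2743 and 2934 FPKM in sham libraries, which did not overlap. Apoe made up most of that sum, Glul averaged 150 FPKM in LAS and 143 FPKM in sham libraries, and Fabp7, picked out after its values were seen, was at 80.7, 68.3 and 80.8 FPKM in LAS and 116, 121 and 156 FPKM in sham libraries (limma, unadjusted p = 0.00050, adjusted p = 1.00). Their part in the collagen values was not tested. Sensory neuron markers, which define the tissue, summed to 7206 to 7435 FPKM in LAS and 7158 to 7529 FPKM in sham libraries. In bulk tissue, fewer cells of a type and less RNA per cell cannot be told apart.

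The comparison asked which collagen genes differ in DRG between LAS and sham mice 14 days after surgery. No collagen gene passed the test in either direction. A gene was called where limma gave an adjusted p of 0.05 or less and the fold was 1.5 or more, and by this rule 0 of the 34 tested collagen genes and 0.00% of all 14006 genes tested were called. At an unadjusted p of at most 0.05, 1 member was higher and 1 lower, where 2.22% of all genes tested were higher and 1.31% lower, 3.53% in all. The adjusted p was 1.00 for every member. Of the 34, 17 had a higher and 17 a lower mean log2 level in LAS libraries, and the median log2 fold change was 0.0044, against 0.0043 over all genes tested. For 23 members the log2 fold change was within 0.25 of 0, and only Col2a1 reached the fold of 1.5. The median standard error was 0.17 on the log2 scale. Folds are on the log2(FPKM + 0.1) scale, which understates those of low genes, and SE after a log2 fold change stands for its standard error.

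The balance of directions depended on which libraries were kept. Without LAS replicate 1, 21 members were higher and 13 lower with a median log2 fold change of 0.049, and without sham replicate 1, 20 were higher and 14 lower with a median of 0.052. Without sham replicate 3, 11 members were higher and 23 lower, with a median log2 fold change of -0.08 against 0.02 over all genes. Without both sham replicate 3 and LAS replicate 2 the counts were again 11 and 23, and the median was -0.14 against 0.02. In the fits without sham replicate 3 limma called 0 collagen genes, where it called 0.00% of all genes without sham replicate 3 and 0.0357% without both. At an unadjusted p of at most 0.05, limma without sham replicate 3 had 1 collagen gene higher and 3 lower, against 6.45% and 3.72% of all genes. Without both libraries it had 0 higher and 3 lower, against 7.79% and 3.82% of all genes.

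**Figure D3:**
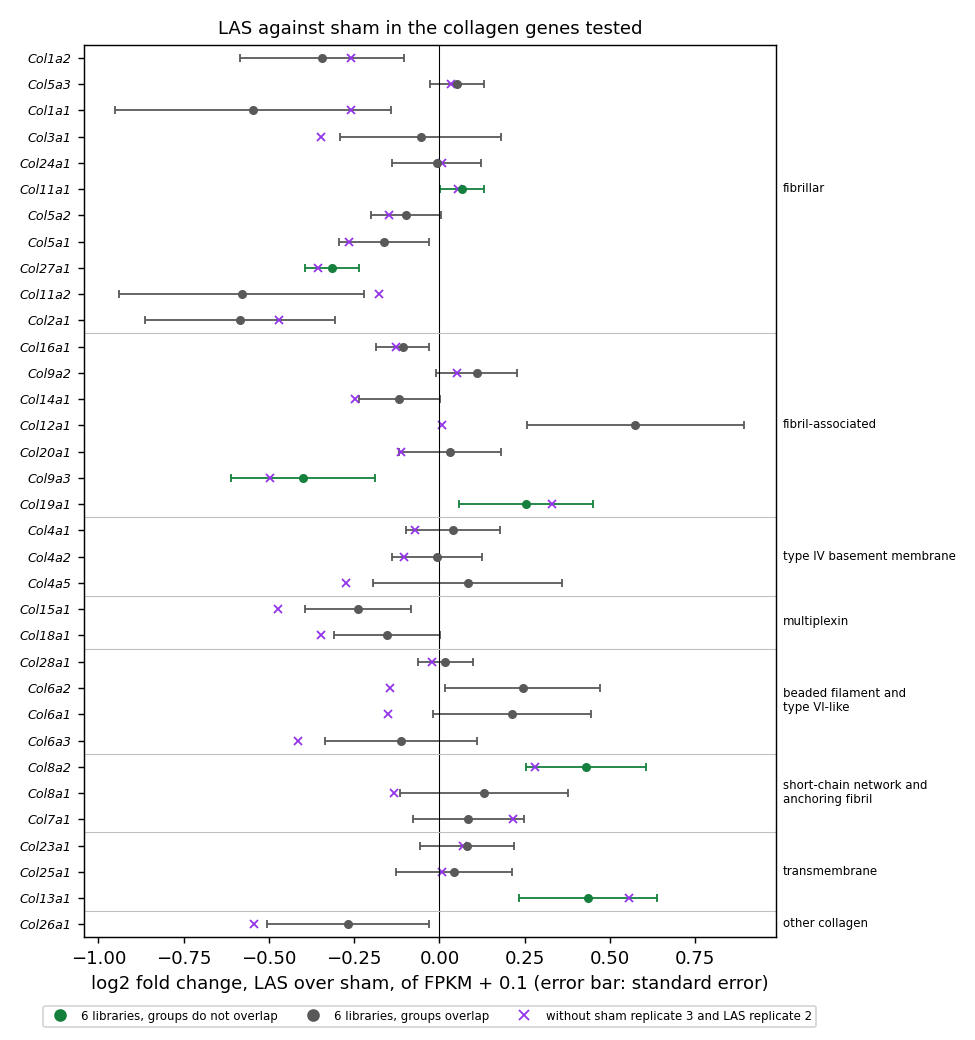
Log2 fold change of LAS over sham (x axis, log2 of FPKM + 0.1) with its standard error for the 34 tested collagen genes by class, green where the groups had no overlap in level and grey where they had, with crosses for the value without sham replicate 3 and LAS replicate 2. No gene passed the test, 6 genes are green, and Col12a1 moves to 0.01 and Col11a2 to -0.18 at the crosses.

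For 6 of the 34 tested members, or 17.6%, all LAS libraries lay on 1 side of all sham libraries, against 9.70% of all genes tested. Of these 4 were higher in LAS libraries, against 5.89% of all genes, and 2 were lower, against 3.81%. The count was 10 of 34 without sham replicate 2 (17.1% of all genes), and 10 of 34 without sham replicate 3 (28.9% of all genes). The 6 were Col27a1, Col9a3, Col8a2, Col13a1, Col19a1 and Col11a1, and they belong to 4 classes.

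Col27a1 (gene 373864) encodes a fibrillar chain known from cartilage and other developing connective tissue. It was at 4.07, 4.48 and 4.36 FPKM in LAS replicates 1 to 3, against 5.25, 5.60 and 5.28 FPKM in sham replicates 1 to 3. All LAS libraries were lower than all sham libraries, and each group was tight. The mean was 4.30 ± 0.21 FPKM in LAS and 5.38 ± 0.19 FPKM in sham libraries (SD, n = 3 each). In limma this was a log2 fold change of -0.32 with an SE of 0.08 (unadjusted p = 0.0050, adjusted p = 1.00). Under the 16 alternatives the unadjusted p from limma was 0.0033 to 0.023, and the adjusted p 0.31 to 1.00.

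Col8a2 (gene 329941) encodes a chain of type VIII collagen, a short-chain type of vessel walls and of the membrane under corneal endothelium. LAS replicates 1 to 3 had 1.35, 2.10 and 1.70 FPKM, against 1.24, 1.22 and 1.23 FPKM in sham replicates 1 to 3. The sham values hardly varied, and LAS replicate 2 was furthest above them. This gave a log2 fold change of 0.43 with an SE of 0.18 (limma, unadjusted p = 0.045, adjusted p = 1.00), and of 0.28 without sham replicate 3 and LAS replicate 2. Col8a1, the partner chain, was at 1.25 to 1.67 FPKM in LAS and 1.02 to 1.88 FPKM in sham libraries, and the groups overlapped.

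Col13a1 (gene 12817) encodes a transmembrane collagen known from the neuromuscular junction and cell adhesion sites. It was at 0.76, 0.83 and 0.94 FPKM in LAS libraries, against 0.58, 0.51 and 0.71 FPKM in sham libraries. The groups were separate, with the gap between LAS replicate 1 and sham replicate 3. In limma the log2 fold change was 0.44, SE 0.20 (adjusted p = 1.00). All 3 tested transmembrane genes had a positive log2 fold change. Col23a1, the most abundant of them, was at 9.57, 12.9 and 13.9 FPKM in LAS and 10.9, 11.1 and 12.0 FPKM in sham libraries, which overlapped. Col25a1, expressed by neurons and needed in mice for motor innervation of muscle, was at 0.74 to 0.84 FPKM in LAS and 0.74 to 0.83 FPKM in sham libraries.

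Among the fibril-associated genes, whose products decorate the surface of fibrils, Col9a3 and Col19a1 were separate in opposite directions. Col9a3 (gene 12841), a chain of cartilage type IX collagen, was at 0.57, 0.93 and 0.84 FPKM in LAS and 1.07, 0.97 and 1.09 FPKM in sham libraries. LAS replicate 1 was the lowest, and the nearest values of the groups, 0.93 and 0.97 FPKM, were close. Of its annotated exon bases 6.07% also belong to Tcfl5 on the other strand, and whether counting used strand is not given in the sources used here. Col19a1 was at 0.75, 0.64 and 0.67 FPKM in LAS and 0.59, 0.50 and 0.59 FPKM in sham libraries, a log2 fold change of 0.25 with an SE of 0.20. That of Col9a3 was -0.40 with an SE of 0.21, and limma gave both an adjusted p of 1.00.

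Col11a1, a minor fibrillar chain that sets fibril width, was the steadiest member. It was at 7.04, 7.31 and 7.55 FPKM in LAS and 7.03, 7.0 and 6.87 FPKM in sham libraries. The groups did not overlap by a margin of 0.01 FPKM, with a log2 fold change of 0.07 and an SE of 0.06. Its highest value was 1.10 times its lowest.

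Col6a4, left out by the filter, was also separate at the limit of rounding, at 0.05, 0.05 and 0.03 FPKM in LAS and 0.07, 0.06 and 0.06 FPKM in sham libraries.

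Type I collagen transcripts were highest in a single sham library. Col1a1 (gene 12842) was at 15.8, 26.9 and 23.0 FPKM in LAS replicates 1 to 3, against 28.1, 18.6 and 58.4 FPKM in sham replicates 1 to 3. Col1a2 (gene 12843), which encodes the other chain of type I collagen, was at 35.5, 55.4 and 48.1 FPKM in LAS and 55.7, 43.9 and 79.3 FPKM in sham libraries. Both were highest in sham replicate 3 and lowest in LAS replicate 1, and the groups overlapped. For Col1a1 limma estimated a log2 fold change of -0.55 with an SE of 0.40, and for Col1a2 of -0.34 with an SE of 0.24. Without sham replicate 3 they were -0.10 and -0.12 (adjusted p = 0.92 and 0.87 from limma). Without sham replicate 2 they were -0.92 and -0.54 (limma, unadjusted p = 0.038 and 0.052, adjusted p = 0.97 for both). For both genes these fits gave the ends of the range when each library was left out.

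Col3a1, the fibrillar collagen of soft connective tissue and vessel walls, did not share the high value of sham replicate 3. It was at 9.51, 15.2 and 13.2 FPKM in LAS and 17.7, 11.5 and 10.5 FPKM in sham libraries. The ratio of Col3a1 to Col1a2 was 0.268, 0.274 and 0.275 in LAS libraries, and 0.319, 0.263 and 0.132 in sham libraries. It was thus lowest in sham replicate 3, where the ratio of Col1a1 to Col1a2 was highest, at 0.736, against 0.446 to 0.485 in LAS libraries and 0.505 and 0.424 in the other sham libraries.

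Osteoblast and adipocyte markers moved with this library, as did the muscle and myeloid markers above. Bone matrix is rich in type I collagen and poor in type III. All 5 tested genes of an 8-gene osteoblast list were highest in sham replicate 3, and the summed list was at 118, 121 and 150 FPKM in LAS and 131, 99.7 and 249 FPKM in sham libraries. Spp1 made up most of that sum in every library, at 167 FPKM in sham replicate 3. For Alpl the lead of sham replicate 3 was narrow, at 6.90 FPKM against 6.84 FPKM in LAS replicate 3. Bglap, which encodes osteocalcin and was picked out after its values were seen, was at 0, 1.95 and 0 FPKM in LAS and 0.19, 0 and 52.3 FPKM in sham libraries, though its reads may be shared with the near-identical Bglap2. Bglap2 and Sp7 of that list were also listed at 0 in at least 1 library. All 5 tested adipocyte markers were highest there too, and that list summed to 8.26, 30.4 and 18.2 FPKM in LAS and 11.1, 2.12 and 74.6 FPKM in sham libraries. The part of any of these cells in the type I values was not tested.

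Further members were highest in the same library. Col11a2, the partner chain of Col11a1 in cartilage, was at 1.30, 1.37 and 1.20 FPKM in LAS and 1.54, 1.32 and 3.74 FPKM in sham libraries. The log2 fold change was -0.58 with an SE of 0.36, and -0.14 without sham replicate 3. Col2a1, the main fibrillar collagen of cartilage, was at 0.31, 0.44 and 0.52 FPKM in LAS and 0.70, 0.51 and 0.85 FPKM in sham libraries, with a log2 fold change of -0.59 and an SE of 0.28 (limma, unadjusted p = 0.073). Only LAS replicate 3 and sham replicate 2 overlapped, by 0.01 FPKM. Of 7 cartilage markers, Acan, Matn3 and Matn1 did not pass the filter, and the summed list was at 21.7 to 24.7 FPKM in LAS and 21.4 to 24.1 FPKM in sham libraries. Cnmd made up most of that sum, at 11.9 to 14.3 FPKM. Of the 4 tested genes of the list 1, Chad, was highest in sham replicate 3, at 2.95 FPKM against 0.95 to 2.02 FPKM in the other libraries. Col22a1, found at muscle-tendon junctions, was at 0.25 to 0.36 FPKM in LAS libraries, 0.24 and 0.26 FPKM in sham replicates 1 and 2 and 1.06 FPKM in sham replicate 3, the library with the high skeletal muscle markers.

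**Figure D4:**
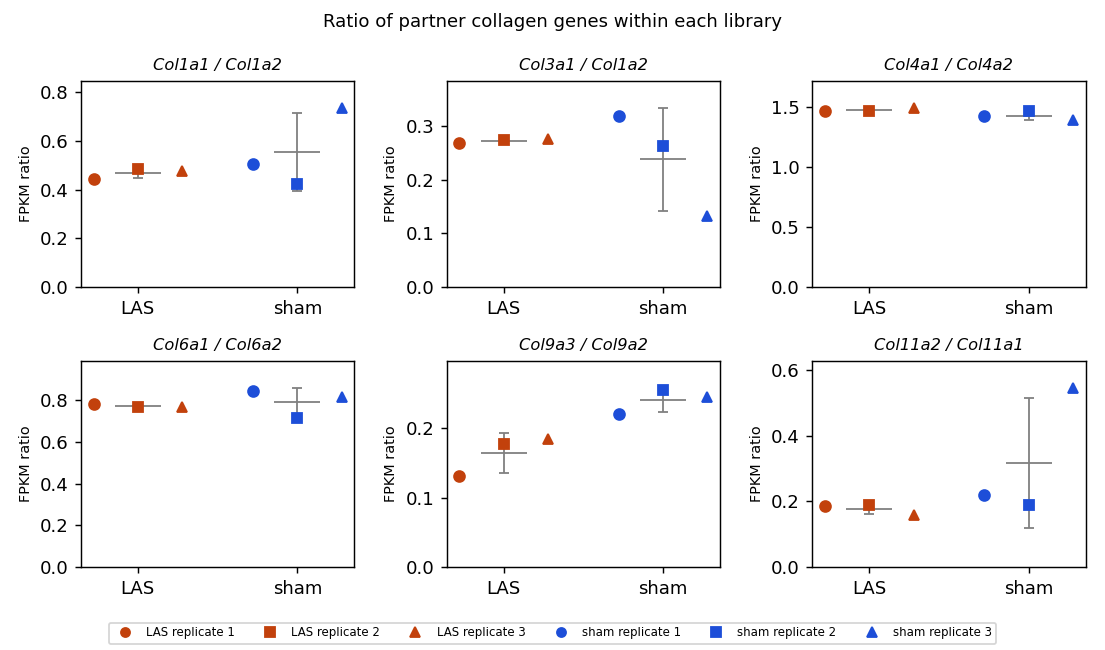
Ratio of the FPKM of 2 collagen genes within each library (y axis, from 0) for 6 pairs of partner genes, with LAS libraries at the left and sham libraries at the right of each panel and the group mean ± SD in grey (n = 3 each). Col4a1 over Col4a2 stays between 1.39 and 1.49, while Col1a1 over Col1a2 and Col11a2 over Col11a1 are highest in sham replicate 3.

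Col4a1 and Col4a2, the abundant type IV genes, kept close to a fixed proportion. Col4a1 was at 19.8, 26.5 and 28.3 FPKM in LAS and 26.1, 23.9 and 22.0 FPKM in sham libraries. Col4a2, whose chain joins that of Col4a1 in most basement membranes, was at 13.5, 18.0 and 19.0 FPKM in LAS and 18.2, 16.3 and 15.8 FPKM in sham libraries. Both were lowest in LAS replicate 1 and highest in LAS replicate 3, and the groups overlapped. The ratio of Col4a1 to Col4a2 was 1.47, 1.47 and 1.49 in LAS and 1.43, 1.47 and 1.39 in sham libraries. The highest ratio was 1.07 times the lowest, while the level of Col4a1 itself varied 1.43-fold. Log2 fold changes were near 0, at 0.04 with an SE of 0.14 for Col4a1 and -0.01 with an SE of 0.13 for Col4a2.

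These genes lie head to head in the GENCODE annotation, where their first exons share 22 bases on opposite strands. Of 8 pairs of collagen genes with no other protein-coding gene between them, 3 were head to head, all of type IV. Col4a3 and Col4a4, another such pair, were at 0.25 to 0.39 and 0.38 to 0.41 FPKM in LAS libraries and at 0.17 to 0.40 and 0.37 to 0.50 FPKM in sham libraries, and their ratio varied 2.23-fold. Of the exon bases of Col4a3, 5.65% also belong to a gene on the other strand. Col6a1 and Col6a2, neighbours on 1 strand that encode chains of beaded filament type VI collagen, varied 1.93-fold and 2.05-fold while their ratio varied 1.18-fold. Ratios of low genes carry more rounding error, and no test of these ratios was run, since an exact permutation test of 3 against 3 libraries cannot go below a p of 0.10.

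Col6a1, Col6a2 and Col12a1 were highest in the library with high leptomeningeal markers, while Col6a3 was highest in sham replicate 1. Among the 34 tested members 7 peaked in that library, LAS replicate 2, and the others were Col5a2, Col9a2, Col8a2 and Col4a5. Of all 14006 genes tested, 2244 peaked there. Col6a2 was at 9.82, 16.9 and 11.8 FPKM in LAS and 12.8, 11.1 and 8.27 FPKM in sham libraries. Col12a1, a fibril-associated collagen of tendon, fascia and meninges, was at 2.90, 5.22 and 2.83 FPKM in LAS and 3.13, 2.59 and 1.53 FPKM in sham libraries. LAS replicate 2 was the highest and sham replicate 3 the lowest for both, as for Col6a1. For Col12a1 the log2 fold change was 0.57 with an SE of 0.32, and 0.01 without these libraries. For Col6a2 it was 0.24 with an SE of 0.23, and -0.15 without them (limma, adjusted p = 0.65). Of the 8 tested leptomeningeal markers 7 were highest in LAS replicate 2, led by the prostaglandin synthase gene Ptgds at 1073 FPKM, and their part in these collagen values was not tested.

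Several abundant members varied little. Col5a3, a chain of type V collagen, was at 37.0, 36.3 and 41.7 FPKM in LAS and 39.0, 37.8 and 34.2 FPKM in sham libraries. Col28a1, a type VI-like collagen known in mice from the peripheral nervous system, around glia, was at 19.7, 20.1 and 22.4 FPKM in LAS and 20.8, 21.9 and 18.8 FPKM in sham libraries. Col16a1, a fibril-associated collagen, was at 15.9, 14.8 and 16.3 FPKM in LAS and 18.3, 16.9 and 15.5 FPKM in sham libraries. Highest values were 1.19 to 1.24 times the lowest for these 3 genes, and each had overlapping groups. The median SD within groups was 0.21 on the log2 scale for the 34 tested members, against 0.12 for all genes tested.

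Both multiplexins, basement membrane collagens that carry sugar chains, had a lower mean level in LAS libraries, without passing the test. Col15a1 was at 8.51, 11.2 and 10.4 FPKM in LAS and 13.7, 12.5 and 9.53 FPKM in sham libraries, which overlapped through sham replicate 3. This came to a log2 fold change of -0.24 with an SE of 0.16, and without that library to -0.39 with an SE of 0.12 (limma, unadjusted p = 0.014, adjusted p = 0.40). That was the largest drop with 1 library left out. Col15a1 was at -0.13 without LAS replicate 1 and at -0.13 without sham replicate 1 (limma, unadjusted p = 0.46 and 0.45). Col18a1, the precursor of endostatin, was at 4.85 to 7.20 FPKM in LAS and 6.13 to 7.63 FPKM in sham libraries.

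The remaining members overlapped between the groups. Among fibrillar genes, Col24a1 was at 6.79 to 9.19 FPKM in LAS and 6.99 to 8.35 FPKM in sham libraries. The type V genes were at 4.94 to 6.23 FPKM in LAS and 6.08 to 6.21 FPKM in sham libraries for Col5a2, and at 3.87 to 5.28 FPKM in LAS and 5.13 to 5.70 FPKM in sham libraries for Col5a1. Among fibril-associated genes, Col9a2 was at 4.34 to 5.22 FPKM in LAS and 3.80 to 4.84 FPKM in sham libraries. Type V collagen starts fibril assembly, and type IX and XIV collagens bind the fibril surface. Col14a1 was at 3.61 to 4.50 FPKM in LAS and 4.07 to 4.80 FPKM in sham libraries, and Col20a1 at 1.41 to 1.52 FPKM in LAS and 1.20 to 1.61 FPKM in sham libraries. Col6a3, the third main chain of type VI collagen, was at 2.19 to 3.01 FPKM in LAS and 2.11 to 3.76 FPKM in sham libraries. Col26a1 was at 1.51 to 2.92 FPKM in LAS and 2.34 to 3.06 FPKM in sham libraries. Col7a1, which forms anchoring fibrils under epithelia, and Col4a5, a minor basement membrane chain, had lower mean levels than these. Col7a1 was at 1.20 to 1.44 FPKM in LAS and 1.05 to 1.37 FPKM in sham libraries, and Col4a5 at 0.55 to 0.75 FPKM in LAS and 0.39 to 0.73 FPKM in sham libraries. Col10a1, Col6a5, Col4a6 and Col17a1 did not exceed 0.19 FPKM in any library.

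By class, the summed level of the 11 fibrillar genes was 151 ± 21.3 FPKM in LAS and 179 ± 36.3 FPKM in sham libraries (SD, n = 3 each), and the sham mean without replicate 3 was 160 FPKM. Of these 11 genes 2 were higher and 9 lower, with a median log2 fold change of -0.16, where 51.7% of all genes tested were higher, and none passed the test. The 6 type IV genes summed to 43.1 ± 7.43 FPKM in LAS and 42.1 ± 3.59 FPKM in sham libraries, and the 9 fibril-associated genes to 31.4 ± 1.61 FPKM in LAS and 31.8 ± 2.45 FPKM in sham libraries. The beaded filament and type VI-like genes summed to 46.3 ± 6.89 FPKM in LAS and 42.8 ± 6.14 FPKM in sham libraries, and the multiplexins to 16.1 ± 2.55 FPKM in LAS and 18.6 ± 2.84 FPKM in sham libraries. In these 4 classes the difference was smaller than the SD of either group, and the fibrillar difference was larger than the SD of the LAS libraries and smaller than that of the sham libraries. The transmembrane genes summed to 13.8 ± 2.29 FPKM in LAS and 12.7 ± 0.65 FPKM in sham libraries, a difference larger than the SD of the sham libraries alone. The short-chain and anchoring fibril genes, Col7a1, Col8a1, Col8a2 and Col10a1, summed to 4.56 ± 0.49 FPKM in LAS and 3.92 ± 0.36 FPKM in sham libraries. This difference was larger than both SDs and all 3 tested genes of the class were higher, but the sums overlapped between LAS replicate 1 (4.14 FPKM) and sham replicate 1 (4.33 FPKM), and none passed the test.

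**Figure D5:**
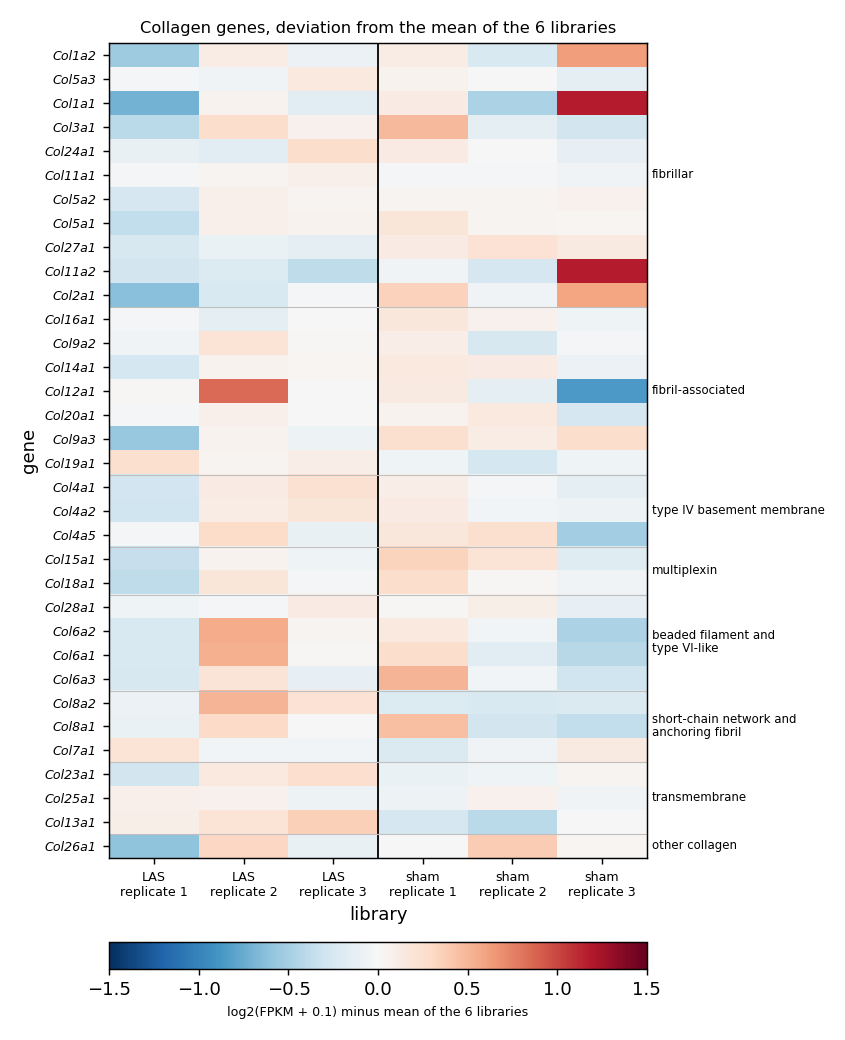
Deviation of log2(FPKM + 0.1) from the mean of the 6 libraries for the 34 tested collagen genes (rows, by class) in each library (columns), red above and blue below the mean. Col1a1 and Col11a2 are red in sham replicate 3, Col12a1, Col6a1 and Col6a2 are red in LAS replicate 2, and much of the LAS replicate 1 column is blue.

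The summed FPKM of all 44 collagen genes was 261, 339 and 325 in LAS replicates 1 to 3, against 344, 300.2 and 357 in sham replicates 1 to 3. LAS replicate 1 was the lowest and sham replicate 3 the highest. The mean was 308 ± 41.7 in LAS and 334 ± 29.9 in sham libraries (SD, n = 3 each). The FPKM of all genes added up to 448142 in sham replicate 3 and to 398503 to 411642 in the other libraries. As a share of that total, collagen was at 0.0635%, 0.0824% and 0.0803% in LAS and 0.0863%, 0.0750% and 0.0797% in sham libraries. By share, sham replicate 1 was thus the highest and LAS replicate 1 the lowest. Without Col1a1 and Col1a2 the sums were 209, 257 and 254 in LAS and 260.3, 238 and 219.5 in sham libraries, with means of 239.9 and 239.2. LAS replicate 1 held the lowest level of 15 of the 34 tested members, where it did so for 13.9% of all genes tested, and sham replicate 3 the lowest of 10 members and the highest of 5, where it did so for 25.0% and 33.4% of all genes. The summed level of the fibroblast markers, led by the proteoglycan gene Dcn, was also lowest in LAS replicate 1, at 377 FPKM. It was 453 and 541 FPKM in the other LAS libraries and 421 to 559 FPKM in sham libraries. Dcn, at 240 FPKM, and Gsn, at 114 FPKM, made up most of the sum in LAS replicate 1. They and Pdgfra were lowest in that library, while Lum, Pi16, Clec3b and Dpt were lowest in others. The part of fibroblasts in the collagen sums was not tested.

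Genes that build and bind collagen also gave no call. The direction counts of their lists stand beside 51.7% of all genes tested that were higher in LAS libraries. Of 21 genes of collagen biosynthesis, the chaperones and enzymes that modify and fold chains in the endoplasmic reticulum, 14 were higher and 7 lower in LAS libraries with a median log2 fold change of 0.03, and 0 passed. P3h4, part of a lysine-modifying complex, was at 5.07, 4.75 and 4.75 FPKM in LAS and 4.49, 4.14 and 4.55 FPKM in sham libraries. Plod2, a lysyl hydroxylase, was at 2.40, 3.07 and 2.60 FPKM in LAS and 2.18, 2.02 and 2.45 FPKM in sham libraries. Fkbp10, a collagen chaperone, was at 4.62 to 5.55 FPKM in LAS and 3.80 to 4.83 FPKM in sham libraries. The groups were separate for P3h4, as they were for 9.70% of all genes tested, and overlapped for the others.

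Outside the cell, procollagen ends are cut off and chains are cross-linked. Of 12 tested genes for these steps 10 were higher and 2 lower, with a median log2 fold change of 0.08, and 0 passed. Lox, the lysyl oxidase that starts cross-links, was at 8.94, 15.04 and 15.99 FPKM in LAS and 10.01, 8.22 and 10.81 FPKM in sham libraries. LAS replicates 2 and 3 were above all sham libraries and LAS replicate 1 was not, and the log2 fold change was 0.42 with an SE of 0.22. Pcolce2, an enhancer of procollagen cleavage, was at 16.1 to 17.1 FPKM in LAS and 14.9 to 16.4 FPKM in sham libraries. Bmp1, a protease that removes a procollagen end, was at 8.14 to 9.60 FPKM in LAS and 7.71 to 8.88 FPKM in sham libraries.

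Of 13 tested matrix partners of collagen 8 were higher and 5 lower, with a median of 0.04, and 0 passed. Lum, which encodes the fibril-binding proteoglycan lumican, was at 16.8, 16.8 and 18.3 FPKM in LAS and 28.1, 18.5 and 19.7 FPKM in sham libraries, which did not overlap. The log2 fold change of Lum was -0.33 with an SE of 0.15. For 3.81% of all genes tested, the LAS libraries were lower without overlap. Thbs1 was at 2.33 to 3.10 FPKM in LAS and 1.28 to 2.63 FPKM in sham libraries, and Matn2 at 30.5 to 35.6 FPKM in LAS and 27.8 to 32.8 FPKM in sham libraries.

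Of 10 tested collagen receptors 7 were higher and 3 lower, with a median of 0.07, and 0 passed. Itga11, the alpha subunit of an integrin that binds fibrillar collagen, was at 1.12, 0.96 and 0.93 FPKM in LAS and 1.34, 1.48 and 1.33 FPKM in sham libraries. All LAS libraries were lower, and limma gave a log2 fold change of -0.43 with an SE of 0.15 (unadjusted p = 0.022, adjusted p = 1.00). Itgb1, its beta subunit, was at 63.9 to 67.6 FPKM in LAS and 61.6 to 64.2 FPKM in sham libraries. Mrc2, a receptor that takes up collagen for degradation, was at 2.53 to 3.81 FPKM in LAS and 1.74 to 3.40 FPKM in sham libraries. In these lists of genes that build and bind collagen, only P3h4, Lum and Itga11 of the tested genes had separate groups. Over all genes tested the share was 9.70%. Many genes of these lists peaked in LAS replicate 2, which had the high leptomeningeal markers. These were 8 of 21 biosynthesis genes, 6 of 12 processing genes, 6 of 13 matrix partners and 4 of 10 receptors. Of all 14006 genes tested, 2244 peaked there. The part of that library in the direction counts was not tested.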

How the data were processed

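RNA of ipsilateral L3 to L5 DRG was sequenced in 6 libraries, 3 LAS and 3 sham, grouped by their labels. The authors deposited 1 FPKM value per gene and library, rounded to 0.01, made from reads they had mapped to mouse. Which aligner, counter and build they used is not given in the sources used here, and FPKM carry no counts, so the depth behind a value is unknown and no counting interval is given. Their p-value, q-value and log2 fold change columns, which the authors deposited for their own comparison of the model with sham from edgeR and limma-voom, were not used, and whether their sham side is 1 library or the group is not given in the sources used here. Genes at 0.5 FPKM or more in 3 or more libraries, 14006 in number, were compared on log2(FPKM + 0.1) with limma 3.58.1 (R 4.3.3). The prior variance followed the mean level, and p-values were adjusted over all these genes by the method of Benjamini and Hochberg. The test was tested on simulated data. The study's own tools need counts, so limma on the log scale stood in for them. The members and lists were chosen with earlier results of these data known. Values in every library were given for the 10 most abundant members, the 8 with the smallest p and those whose groups did not overlap, and values or ranges for the 3 genes of each pathway list with the smallest p. Alternatives covered the pseudocount, filter, scaling, variance model, replicate block, call rule and libraries left out. Coding sequences, neighbours and exon overlaps came from GENCODE M21 (GRCm38), and no protein sequences were used here. Tables and figures were made with Python 3.11.15, pandas 2.3.3, NumPy 2.4.6 and matplotlib 3.10.9.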

Additional observations from a re-analysis of the deposited data

How the results depend on the processing

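Under the alternatives for the pseudocount, filter, scaling, variance model, call rule and libraries left out, limma called 0 collagen genes, also where the fold was left out or the log2 fold change had to reach 1.5. At the thresholds of the main fit it called 0.00% of all genes as well, except 0.0357% without sham replicate 3 and LAS replicate 2. Where no gene at all was called, a count of 0 says nothing particular to collagen genes. By an unadjusted p of at most 0.05 with a fold of at least 1.5 limma also had 0 collagen genes, but 1 with no mean-variance trend and 2 without sham replicate 2. With the replicate block limma also called 0 collagen genes. Whether the replicate numbers pair the samples is not given in the sources used here. Deviations from the group means correlated at -0.41, 0.24 and -0.15 for same-numbered libraries and at -0.29 to 0.43 for the other pairs. With deviations taken from means of 3 libraries, these correlations cannot decide the pairing. Leaving out each library in turn, or sham replicate 3 and LAS replicate 2 together, gave a median log2 fold change of -0.14 to 0.052, the lowest being the one without both. The difference in summed FPKM, -25.7, was -42.5 to -1.92 when each library was left out. Of 20 named and tested genes, 13 kept their sign in every fit. With 1 library or both of these left out, log2 fold changes were -0.026 to 0.24 for Col23a1, -0.043 to 0.064 for Col28a1, -0.35 to 0.17 for Col3a1, -0.072 to 0.19 for Col4a1, -0.10 to 0.14 for Col4a2, -0.012 to 0.089 for Col5a3 and -0.15 to 0.42 for Col6a2. With libraries scaled to the same total, Col4a2 was at 0.013, where it was at -0.0077 as deposited. The cause of these reversals was not tested. The number of members whose groups did not overlap, an alternative chosen after seeing the data, was 7 to 10 when each library was left out, against 15.2% to 28.9% of all genes tested, and 17 of 34 without both libraries, against 44.2% of all genes. Depth limits could not be given, as FPKM carry no counts.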
